A study of Mus musculus with 3 samples.

Results

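The data described here are the expression values of 60 genes that drive DNA replication and mitosis, measured in healing mouse skin on day 10, day 12 and day 14 after a large excision wound. The genes were taken by symbol from a list of 60, and the array's annotation gave 59 of them a probe set of their own, out of 19938 named genes in all. The cyclin gene Ccnb1 was the member that no probe set named, so its expression is not analysed here, and only its promoter is counted below. The 59 genes were described in 3 groups, with 17 of DNA replication, 38 of mitosis and 4 that govern entry into S phase (cyclin E and E2f genes). Mice were of the inbred C57Bl/6 strain and 6 weeks old, and the labels name no other genotype, no drug and no sex. A wound of 1.5 cm2 through epidermis and dermis had been made on the back, and the new tissue was dissected away from intact skin and from hair follicles at the margin, per the labels' protocols. Each day was represented by the combined tissue of 3 mice on 1 array.

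A cell that divides first copies its DNA and then separates the copies. Before S phase, the loading factor Cdc6 helps to place the ring of Mcm2 to Mcm7 on origins, and the ring becomes an active helicase together with Cdc45 and the GINS complex. Ribonucleotide reductase, thymidylate synthase and thymidine kinase supply the nucleotides. At mitosis, Cdk1 with cyclin B, the Aurora and Polo-like kinases, the kinetochore proteins and the kinesin motors build the spindle and check it, and the anaphase-promoting complex ends the phase. Transcripts of the first kind peak around the start of S phase and are classic targets of E2F factors, whereas those of the second kind peak in G2 and mitosis under the MuvB complex with B-Myb and Foxm1. In healing skin, keratinocytes, fibroblasts, endothelial cells and some leukocytes all divide.

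Values are log2 expression levels as deposited, so a difference of −1 is a 2-fold lower level. Array medians over 35556 probe sets lay between 7.53 and 7.55, and no further scaling was applied. Because each day had 1 array, the spread between animals could not be estimated, no test was made, no p-value is given, and day, pool and array cannot be told apart. The pools also differed in Y-linked transcripts, looked up after all values were seen. Eif2s3y stood at 5.49 on day 10, 9.59 on day 12 and 8.38 on day 14, and Uty and Kdm5d were likewise lowest on day 10 and highest on day 12, while Xist, made from the inactive X chromosome, stood at 12.30, 12.05 and 12.28. The pools may thus differ in the sex of their mice, which the labels do not give, and sex cannot be told apart from day. The part of such a difference between pools in the results was not tested. The only measure of error was the disagreement between probe sets. In 444 genes with 2 well-expressed probe sets of differing values, the pair disagreed on the difference of day 14 against day 10 by less than 0.41 in 95% of cases (0.36 for day 12 against day 10, 0.26 for day 14 against day 12). A gene was counted when its level was reduced by 20% or more on the linear scale (a log2 difference of −0.322 or below), and these counts were set beside the same count over all 19938 named genes and over the 9969 whose highest value reached 8.36, the median of that quantity. Of the 59 members, 48 reached that level. In whole tissue, a smaller number of dividing cells and less RNA in each dividing cell cannot be told apart.

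The mitotic genes were lower on day 12 than on day 10, and lower again by a smaller step on day 14, while most replication genes differed little. Of 38 mitotic genes, 21 (55.3%) had a level 20% or more below day 10 on day 12, and 29 (76.3%) had one on day 14. Over all named genes, the share this much lower was 5.02% on day 12 and 9.43% on day 14 against day 10, and over genes above the level filter it was 8.64% and 16.1%. Among 17 replication genes, 2 (11.8%) and 3 (17.6%) passed the same size, which is near the share of genes above the filter. The 2 became 1 with the brightest probe set per gene or with the list limited to Mcm, Gins, Cdc6, Rrm and Pcna genes, and the 3 became 1 under quantile normalization or cyclic loess. By any amount, however, 15 of the 17 (88.2%) were lower than day 10 on day 12, and 15 on day 14. The shares over genes above the filter were 45.7% and 53.8%, and over all named genes 34.5% and 35.6%. Equal values count as not lower in these shares, and they were commoner in both sets than among the replication genes. The median difference of mitotic genes was −0.35 (interquartile range −0.49 to −0.23) on day 12 and −0.48 (−0.61 to −0.36) on day 14 against day 10. For replication genes it was −0.08 (−0.20 to −0.05) and −0.18 (−0.29 to −0.05). The median of all named genes was 0.00 in each comparison. No test of the difference between the mitotic and the replication group was possible with 1 array per day.

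**Figure D1:**
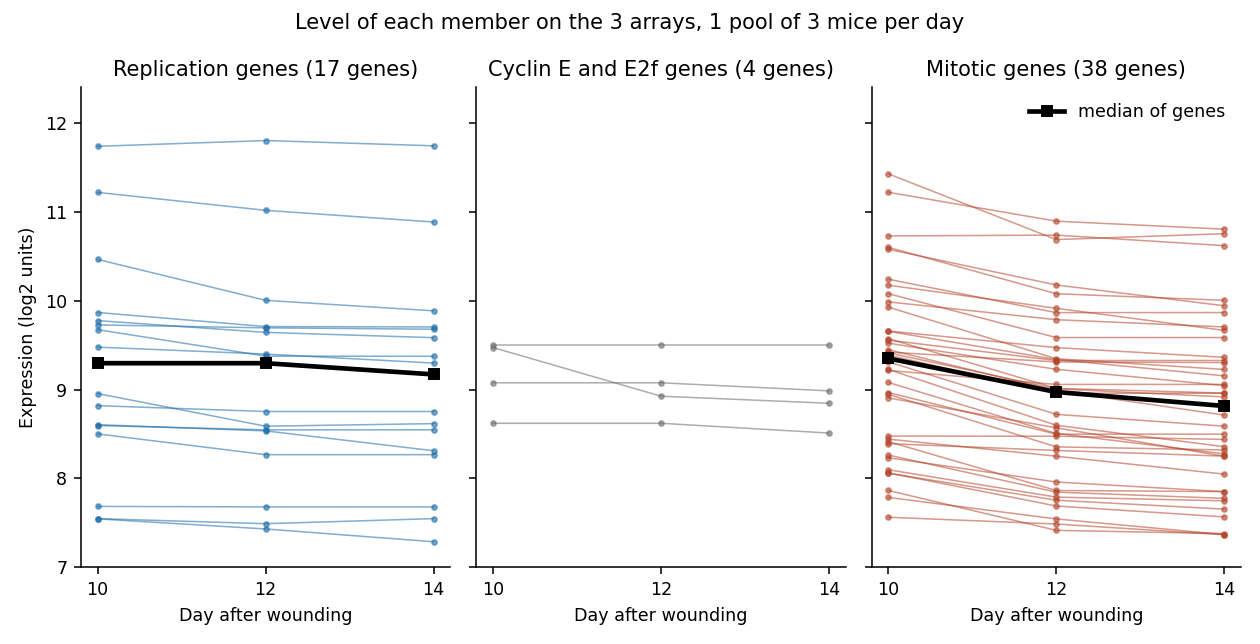
Log2 expression of each measured member (thin lines, 1 line per gene) on day 10, day 12 and day 14, in panels for replication, cyclin E and E2f, and mitotic genes; squares are the median of the genes. The median level of the 38 mitotic genes goes from 9.35 to 8.97 and 8.81, whereas that of the 17 replication genes stands at 9.30, 9.30 and 9.17. The replication median is the value of Mcm6 on each day, with equal values on day 10 and day 12. Mean levels are 9.26, 8.91 and 8.80 for mitotic genes and 9.26, 9.13 and 9.08 for replication genes.

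Larger sizes were met by mitotic genes and by Ccne1. At 1.5-fold, 4 mitotic genes (10.5%) were lower on day 12, against 0.958% of all named genes and 1.64% of those above the filter. On day 14 against day 10, 11 mitotic genes (28.9%) were at least 1.5-fold lower, against 2.98% and 5.19%. No replication gene was, and no member reached 2-fold. The disagreement between probe sets was exceeded by 19 of 38 mitotic genes on day 12, against 4.04% of all named genes and 6.95% of those above the filter. It was exceeded by 24 of 38 on day 14 against day 10, against 6.26% and 10.8%. For replication genes these counts were 2 of 17 on day 12 and 1 of 17 on day 14 against day 10.

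Direction was more uniform than size. Of the 59 members, 53 (89.8%) were lower on day 12 than on day 10 by some amount, 4 were equal and 2 were higher. Set beside this, the share of genes lower by any amount was 34.5% over all named genes and 45.7% over genes above the filter. Ties were commoner there, with 7980 of the 19938 named genes and 2100 of the 9969 above the filter equal. Higher were 5082 and 3309. On day 14 against day 10, 56 (94.9%) were lower, 2 equal and 1 higher, against 35.6% and 53.8%. Of all named genes 5882 were equal and 6954 higher, and above the filter 1655 and 2953. Day 10 held the highest value for 37 of the 38 mitotic genes and 14 of the 17 replication genes, and it did so for 28.6% of all named genes and 43.1% of those above the filter. A tie does not count as highest, and 5128 named genes, 1339 of them above the filter, were equal on all days. The exception among mitotic genes was Mki67, which was higher on day 12 by 0.01.

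The second step was small. On day 14 against day 12, none of the 59 members was lower by that size, against 2.68% of all named genes and 4.41% of those above the filter. Still, 45 (76.3%) were lower by some amount, against 30.8% and 50.3%, and 10 were exactly equal. Over all named genes 7289 were equal and 6517 higher, and above the filter 2474 and 2478. The median was −0.09 for mitotic and −0.02 for replication genes, and under the alternatives run it ranged from −0.11 to −0.05 and from −0.06 to 0.01. Of the 29 mitotic genes counted on day 14 against day 10, 28 had already reached 50% or more of that difference by day 12. The median share was 81.6%, from 48.9% for Kif15 to 110% for Ccnb2, which was slightly higher on day 14 than on day 12. Among the 1880 named genes that were as much lower, the median share was 65.0%, and 73.9% of them had reached 50%. These shares use the day 10 array in both differences. Equal values are frequent in this table, because 23.1% of probe sets held the same number on all 3 arrays, so a difference of 0.00 is not an exact measurement of no change.

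**Figure D2:**
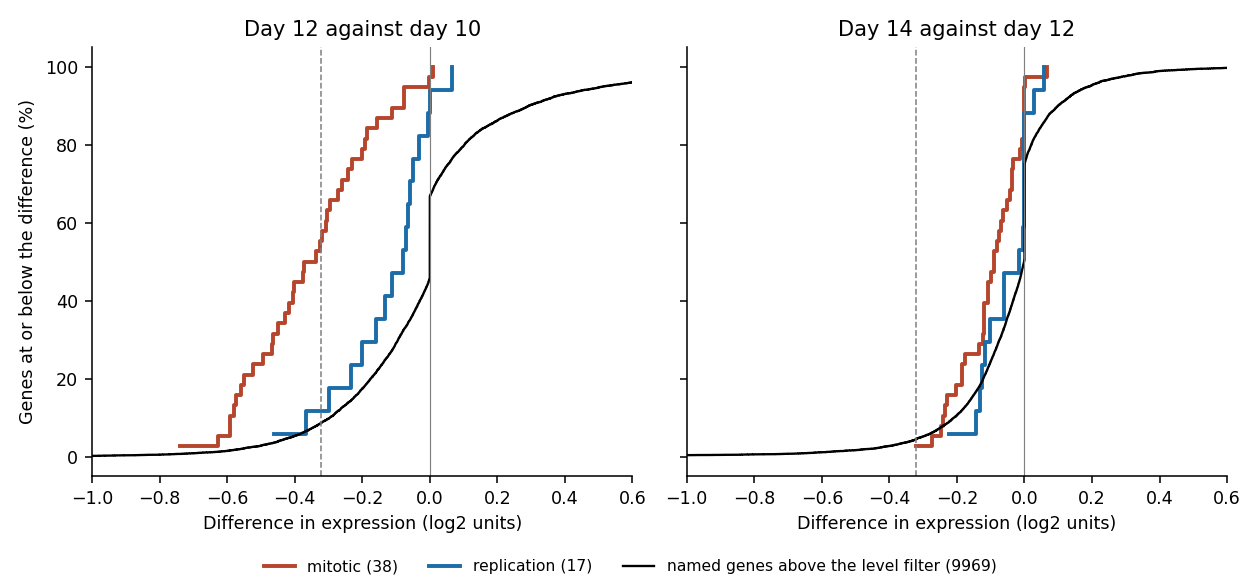
Cumulative share of genes (vertical axis, percent) at or below each log2 difference (horizontal axis) for 38 mitotic genes, 17 replication genes and 9969 named genes above the level filter, on day 12 against day 10 (left) and day 14 against day 12 (right); the dashed line marks a 20% lower level. On the left the mitotic curve lies well to the left of the others, with 55.3% of genes past the dashed line, and on the right no member lies past it.

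The differences were also set beside the level of each gene. When members were split at their median level of 9.08 (mean over the 3 arrays), the 19 mitotic genes at or above it had a median difference between day 14 and day 10 of −0.48 and the 19 below it one of −0.49. The 9 replication genes at or above it had a median of −0.18 and the 8 below it one of −0.15.

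Because nearly all mitotic genes were lower on the same days, their promoters are shown beside those of replication genes. RefSeq promoter windows (build GRCm38.p6, 250 bases before to 50 after a gene start) were found by symbol for 48 of the 60 members, in 52 windows. The 31 mitotic members with a window include Ccnb1, whose expression was not measured. Both strands were searched for 3 short motifs. The first was the cell cycle genes homology region (CHR), bound by MuvB complexes and written TTTGAA or TTCGAA. The second was the CCAAT box, bound by NF-Y. The third was the E2F site, written TTTCCCGC, TTTCGCGC, TTTGCCGC or TTTGGCGC. Matches of different motifs shared bases in 2 of the 52 windows, and matches of the same motif did so in 3. A CHR was found for 24 of 31 mitotic members (77.4%) and 3 of 14 replication members (21.4%), beside 21.7% of all 27025 genes with a window. Within the last 100 bases of the window, next to the gene start, it was found for 71.0%, 7.14% and 6.12%. A CCAAT box was found for 67.7% of mitotic and 78.6% of replication members, beside 41.1% of all genes. An E2F site was found for 6 of 14 replication members (42.9%) and 2 of 31 mitotic members (6.45%), beside 2.60% of all genes. A match is a description of letters and does not show that a factor binds.

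**Figure D3:**
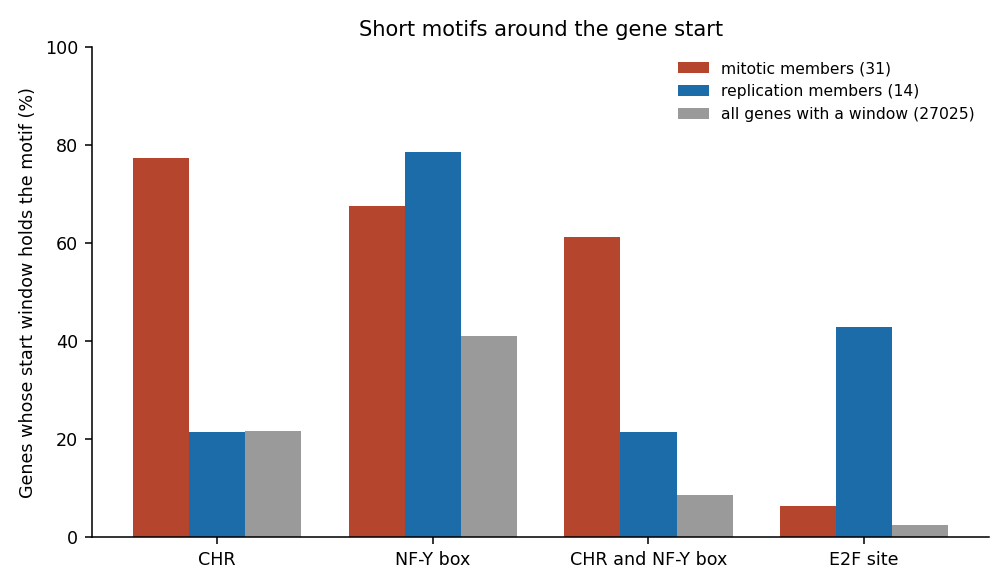
Share of genes (percent) whose window of 250 bases before to 50 after the gene start holds a motif on either strand, for 31 mitotic members, 14 replication members and all 27025 genes with a window; the NF-Y box is the CCAAT box. The CHR stands at 77.4% of mitotic members beside 21.4% of replication members, and the E2F site at 42.9% of replication members beside 6.45% of mitotic members.

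The windows of 6 mitotic genes follow, each 5′ to 3′ on the gene's own strand, with matches to the 3 motifs in capitals. Positions are counted from the gene start, with negative numbers before it. Ccnb2 (chr9:70421505-70421804, minus strand) was the member with the largest difference on day 12, and it holds 3 CCAAT boxes and 2 CHR matches, at −167 and 5. Cdca3 (chr6:124829926-124830225, plus strand) and Cdk1 (chr10:69352863-69353162, minus strand) are strongly lower members with the same pair of motifs, and Cdk1 also holds an E2F site. Kif2c (chr4:117178723-117179022, minus strand) and Nuf2 (chr1:169531415-169531714, minus strand) had the largest differences on day 14 against day 10. Kif2c holds a CHR on the other strand at −103 and no CCAAT box, and Nuf2 holds none of the 3 motifs. Mki67 (chr7:135716330-135716629, minus strand) is shown because its level hardly differed although the window holds 2 CHR and 3 CCAAT matches.
Ccnb2: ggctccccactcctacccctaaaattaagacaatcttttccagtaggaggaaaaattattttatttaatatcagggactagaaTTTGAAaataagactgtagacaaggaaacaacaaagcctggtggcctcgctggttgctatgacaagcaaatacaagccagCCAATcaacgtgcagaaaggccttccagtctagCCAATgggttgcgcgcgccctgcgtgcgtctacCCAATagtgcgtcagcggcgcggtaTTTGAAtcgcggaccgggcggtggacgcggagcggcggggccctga
Cdca3: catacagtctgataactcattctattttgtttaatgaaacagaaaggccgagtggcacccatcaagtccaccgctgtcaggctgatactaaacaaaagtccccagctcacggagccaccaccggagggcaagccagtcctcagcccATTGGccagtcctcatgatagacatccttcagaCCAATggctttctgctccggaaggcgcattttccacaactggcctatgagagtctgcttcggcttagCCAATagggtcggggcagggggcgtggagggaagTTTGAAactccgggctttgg
Cdk1: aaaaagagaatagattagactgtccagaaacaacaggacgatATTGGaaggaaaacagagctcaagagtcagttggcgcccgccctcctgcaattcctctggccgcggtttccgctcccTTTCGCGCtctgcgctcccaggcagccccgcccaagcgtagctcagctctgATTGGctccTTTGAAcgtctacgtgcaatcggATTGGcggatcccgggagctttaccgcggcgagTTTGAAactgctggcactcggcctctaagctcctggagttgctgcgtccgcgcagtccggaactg
Kif2c: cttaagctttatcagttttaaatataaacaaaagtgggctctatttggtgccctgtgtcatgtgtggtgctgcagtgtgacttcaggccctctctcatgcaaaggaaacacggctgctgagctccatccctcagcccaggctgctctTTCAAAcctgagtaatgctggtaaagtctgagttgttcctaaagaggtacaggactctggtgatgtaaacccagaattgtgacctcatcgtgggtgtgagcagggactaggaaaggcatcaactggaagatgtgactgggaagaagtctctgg
Nuf2: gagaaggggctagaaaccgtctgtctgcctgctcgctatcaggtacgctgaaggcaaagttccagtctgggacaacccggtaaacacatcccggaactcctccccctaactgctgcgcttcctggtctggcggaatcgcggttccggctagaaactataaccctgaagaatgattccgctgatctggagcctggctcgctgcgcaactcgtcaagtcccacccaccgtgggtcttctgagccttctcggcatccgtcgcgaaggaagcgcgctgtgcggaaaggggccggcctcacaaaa
Mki67: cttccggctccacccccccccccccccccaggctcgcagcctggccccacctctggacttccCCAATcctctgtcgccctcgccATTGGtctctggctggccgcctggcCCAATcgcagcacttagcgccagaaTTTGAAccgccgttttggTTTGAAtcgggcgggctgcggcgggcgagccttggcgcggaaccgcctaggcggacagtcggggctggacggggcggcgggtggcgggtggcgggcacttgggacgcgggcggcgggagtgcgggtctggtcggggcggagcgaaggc

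The differences of the genes were also set beside the motifs. The 24 measured mitotic members with a CHR had a median difference between day 14 and day 10 of −0.49 (from −0.87 to −0.04), and the 6 without one had a median of −0.49 (from −0.80 to −0.12). The 6 replication members with an E2F site had a median of −0.09 (from −0.29 to 0.00). The 8 without one had a median of −0.27 (from −0.58 to 0.01). Those with a site were Mcm3, Mcm5, Mcm6, Mcm7, Cdc6 and Uhrf1. Those without were Mcm2, Mcm10, Cdc45, Pcna, Rrm1, Rrm2, Tyms and Tk1. All the nucleotide enzymes thus lacked a site of the searched letters, so site and role cannot be told apart, and no link was tested.

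Among the cyclins, kinases and regulators of mitotic entry and exit, all 10 measured genes stood 20% or more below day 10 on day 14. The share was 9.43% over all named genes and 16.1% above the filter. The median difference of the 10 was −0.49. Ccnb2, which encodes cyclin B2, an activator of Cdk1 in mitosis, stood at 11.43 on day 10, 10.69 on day 12 and 10.75 on day 14. Its level on day 12 was 1.67-fold lower than on day 10, and day 14 lay close to day 12. Cdk1, the central mitotic kinase, stood at 10.60, 10.08 and 10.00 on the same days. Ccna2, whose cyclin A2 acts in S phase and G2, stood at 11.22, 10.89 and 10.80. Day 10 was thus the highest for each of these cyclin and Cdk genes.

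Plk1, the Polo-like kinase of spindle assembly and cytokinesis, stood at 10.58, 10.18 and 9.94 and was 1.55-fold lower on day 14 than on day 10. Aurka, the kinase of spindle poles, stood at 8.97, 8.50 and 8.50, with exactly equal values on the later days. Melk, a kinase gene expressed in proliferating cells, stood at 8.95, 8.35 and 8.32 and was 1.54-fold lower on day 14 than on day 10. The kinase genes thus differed mainly between day 10 and day 12, and Plk1 had the largest second step of this group, at −0.23. Foxm1, the transcription factor that acts on many genes of this group, stood at 9.41, 9.01 and 8.92. Cdc20, an activator of the anaphase-promoting complex, stood at 9.39 and then at 8.96 on both later days. Pbk, a mitotic kinase gene, and Cdc25c, a phosphatase that activates Cdk1, were different on day 14 from day 10 by −0.49 and −0.42, and Cdc25c was the member of the group that missed this size on day 12.

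Of 11 genes of the centromere, kinetochore and spindle checkpoint, 8 (72.7%) stood 20% or more below day 10 on day 14, and the median was −0.40. Beside this, the share was 9.43% over all named genes and 16.1% above the filter. Nuf2, a subunit of the NDC80 complex that attaches microtubules, stood at 9.08, 8.51 and 8.28 and was 1.75-fold lower on day 14 than on day 10. Its partner Ndc80 stood at 8.06, 7.75 and 7.65. Bub1, a checkpoint kinase, stood at 9.45, 8.99 and 8.71, a difference of −0.74 from day 10 to day 14. The related Bub1b, which encodes BubR1 of the same checkpoint, stood at 9.21, 9.06 and 9.06 and differed by −0.16. Both steps of Bub1 were thus larger than those of Bub1b, but the difference between these genes has no test.

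The other genes of this group differed in size. Cenpe, a kinesin of the kinetochore, stood at 8.91, 8.57 and 8.25, and its step of −0.320 from day 12 to day 14 was the largest second step among the 59. Cenpa, the histone H3 variant of the centromere, stood at 10.08, 9.58 and 9.58. Cenpf, a kinetochore protein that builds up in G2, stood at 8.48, 8.47 and 8.44, and all its differences were within the disagreement between probe sets. Ttk, the Mps1 kinase of the checkpoint, differed by −0.50 between day 10 and day 14. Of the chromosomal passenger complex, Aurkb and Birc5 were 1.30-fold and 1.27-fold lower, and Cdca8, which encodes borealin, differed by −0.14.

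All 11 genes of spindle motors, spindle assembly and cytokinesis were lower on day 14 than on day 10, and for 8 the level was 20% or more below, the median being −0.49. Kif2c, the kinesin that takes microtubules apart at centromeres, stood at 9.23, 8.60 and 8.36, and its 1.83-fold lower level on day 14 was the largest difference among the members. Kif20a and Prc1, a kinesin and a microtubule bundler of the central spindle, stood at 9.93, 9.35 and 9.23 and at 9.57, 9.01 and 8.96. Kif4, another motor of the central spindle and chromosomes, differed by −0.49. Kif11, the motor that separates spindle poles, and Kif23, a motor of the midzone, did not reach the size counted here, with differences of −0.28 and −0.23. Kif15, which supports bipolar spindles, differed by −0.39 in nearly equal steps.

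The genes for the contractile ring and spindle assembly had second steps of −0.25 (Anln), −0.18 (Ect2) and −0.18 (Tpx2). Anln, whose anillin organises the ring, stood at 10.17, 9.91 and 9.67, and Ect2, the exchange factor that starts furrowing, stood at 9.66, 9.34 and 9.15. Tpx2, an activator of Aurora A on the spindle, stood at 9.52, 9.23 and 9.04. These members were each lower in both steps. Nusap1, a spindle-associated protein, differed by −0.30 and missed the size counted.

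The remaining mitotic genes split. Mki67, the gene of the Ki-67 antigen used to count proliferating cells, stood at 10.73, 10.74 and 10.62, and its differences of 0.01 on day 12 and −0.11 on day 14 against day 10 lay within the disagreement between probe sets. Top2a, the topoisomerase that untangles chromosomes, had 2 probe sets of very different brightness, so that their average is no meaningful level. The brighter stood at 10.08, 10.04 and 9.91 and the dimmer at 5.04, 4.93 and 4.83, with differences of −0.18 and −0.22 from day 10 to day 14. By the average, Top2a was counted below the level filter of 8.36 and below the members' median level of 9.08. The brighter probe set lay above both. Another pair of probe sets that also match Hibadh was left out. Thus the transcripts of Mki67, Top2a and Cenpf, which are common markers of cycling cells, differed little between days at which most other mitotic genes differed. They were named together after their values were seen. On day 14, Bub1b, Cdca8, Plk4, Kif11, Kif23 and Nusap1 also missed the size counted. Genes as widely tied to division, such as Ccnb2 (−0.67) and Cdk1 (−0.60), reached it.

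Cdca3, a cell division gene whose product helps to trigger mitotic entry, stood at 9.31, 8.72 and 8.59 and was 1.65-fold lower on day 14 than on day 10. Cdca5, which encodes sororin, a guard of sister chromatid cohesion, stood at 8.41, 7.86 and 7.85. Most of each difference lay between day 10 and day 12. Cdca2, a phosphatase targeting protein of anaphase chromatin, differed by −0.38 on day 14. Plk4, the kinase of centriole duplication, differed by −0.12.

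**Figure D4:**
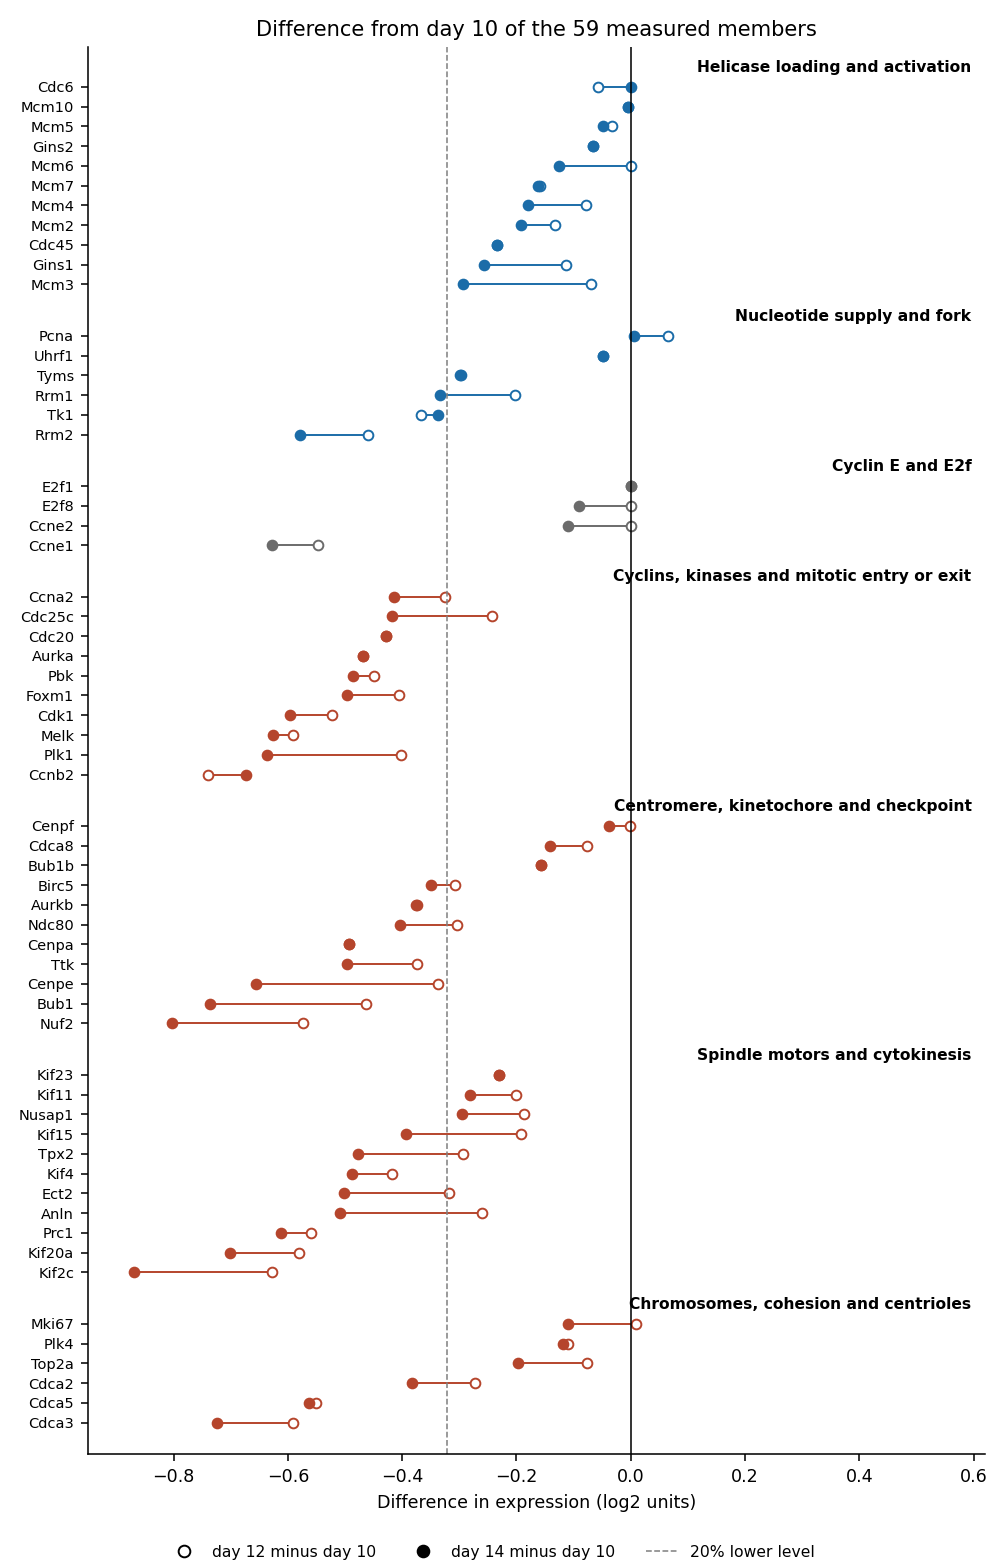
Log2 difference from day 10 (horizontal axis) of each of the 59 measured members on day 12 (open circles) and day 14 (filled circles), grouped by role; blue marks replication, grey cyclin E and E2f, red mitotic genes, and the dashed line a 20% lower level. Kif2c reaches −0.87 and Nuf2 −0.80, whereas the Mcm genes lie between 0.00 and −0.29 and Pcna lies at 0.01 on day 14.

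Genes of the replicative helicase differed little, and none of the 11 was 20% lower in any comparison. On day 14 against day 10, the share was 9.43% over all named genes and 16.1% above the filter. Their median difference between day 14 and day 10 was −0.16. Mcm2 stood at 9.77, 9.64 and 9.58 on day 10, day 12 and day 14, and Mcm5 at 9.73, 9.69 and 9.68. Mcm3 had the largest difference of the family, at 8.60, 8.53 and 8.31, and most of it lay between day 12 and day 14. Mcm4, Mcm6 and Mcm7 differed by −0.18, −0.13 and −0.16 from day 10 to day 14. All 6 ring subunits thus differed on day 14 by −0.05 to −0.29, which is within the disagreement between probe sets.

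Cdc6, which loads the ring, stood at 7.55, 7.49 and 7.55, the same on day 10 and day 14. Mcm10, which binds the helicase when it fires, stood at 7.69, 7.68 and 7.68. Cdc45 stood at 8.50 and then at 8.27 on both later days. The GINS subunit genes Gins1 and Gins2 differed by −0.26 and −0.07 from day 10 to day 14. None of these exceeded the disagreement between probe sets.

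The nucleotide enzymes were the replication genes with the larger differences. Rrm2, the small subunit of ribonucleotide reductase, whose level limits the enzyme in cycling cells, stood at 10.46, 10.00 and 9.89 and was 1.49-fold lower on day 14 than on day 10. It was the replication member whose difference from day 10 to day 14 exceeded the disagreement between probe sets. Rrm1, the large subunit, stood at 11.22, 11.02 and 10.88. Tk1, the thymidine kinase of S phase, had 2 probe sets that differed by −0.48 and −0.19 between day 10 and day 14, and their average stood at 8.95, 8.59 and 8.62. Tyms, thymidylate synthase, stood at 9.67, 9.38 and 9.37.

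Pcna, the sliding clamp of DNA polymerases, stood at 11.74, 11.80 and 11.74 and was the member that was higher on day 14 than on day 10, by 0.01. Its 2 probe sets held identical values on every array and are counted as 1 measurement. Uhrf1, which guides the copying of DNA methylation, stood at 8.59, 8.55 and 8.55. The nucleotide enzymes thus had larger differences than the clamp and Uhrf1.

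The printed windows of 3 replication genes, with the same capitals, show what the motif counts rest on. Mcm5 (chr8:75109259-75109558, plus strand) and Mcm6 (chr1:128359656-128359955, minus strand) hold E2F sites and CCAAT boxes and no CHR. Rrm2 (chr12:24708004-24708303, plus strand), the replication member with the largest difference, holds a CCAAT box at −50 and neither a CHR nor an E2F site of the searched letters.
Mcm5: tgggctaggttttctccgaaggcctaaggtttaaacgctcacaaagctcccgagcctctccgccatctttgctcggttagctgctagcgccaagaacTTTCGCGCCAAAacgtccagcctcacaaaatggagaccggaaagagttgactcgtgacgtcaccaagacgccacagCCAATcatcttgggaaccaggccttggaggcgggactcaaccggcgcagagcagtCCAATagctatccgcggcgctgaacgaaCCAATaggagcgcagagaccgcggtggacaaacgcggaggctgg
Mcm6: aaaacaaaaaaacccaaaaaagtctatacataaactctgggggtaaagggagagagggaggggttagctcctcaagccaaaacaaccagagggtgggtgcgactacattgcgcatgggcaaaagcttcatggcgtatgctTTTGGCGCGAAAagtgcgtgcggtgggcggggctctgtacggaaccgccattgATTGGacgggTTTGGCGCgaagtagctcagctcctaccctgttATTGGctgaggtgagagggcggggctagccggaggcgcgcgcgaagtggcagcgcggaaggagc
Rrm2: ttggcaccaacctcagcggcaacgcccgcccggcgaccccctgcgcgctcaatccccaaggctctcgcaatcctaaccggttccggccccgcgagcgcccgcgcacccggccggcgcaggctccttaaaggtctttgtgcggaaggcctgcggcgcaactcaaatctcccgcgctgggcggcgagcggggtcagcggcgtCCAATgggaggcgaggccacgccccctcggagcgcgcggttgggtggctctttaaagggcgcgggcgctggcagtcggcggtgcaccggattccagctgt

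The 4 genes of S-phase entry did not move together. Ccne1, which encodes cyclin E1, the partner of Cdk2 at the start of S phase, stood at 9.47, 8.92 and 8.85 and was 1.54-fold lower on day 14 than on day 10. Ccne2, its close relative, stood at 8.62, 8.62 and 8.51. E2f1, an activating E2F factor, held exactly 9.50 on all 3 arrays, and E2f8, a repressing one, stood at 9.08, 9.08 and 8.99. Ccne1 was thus the gene of this group with a difference above the disagreement between probe sets.

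Genes of the same processes that are not members varied by list. Of 194 measured genes in 10 further cell cycle lists, the level of 34 (17.5%) was 20% or more below day 10 on day 12, beside 5.02% of all named genes and 8.64% of those above the filter. For 8 (4.12%) it was that far below day 12 on day 14, which is near the 4.41% of genes above the filter. For 67 (34.5%) it was that far below day 10 on day 14, beside 9.43% and 16.1%. In that comparison 2 were 25% or more above, beside 1334 of the 19938 named genes and 982 of the 9969 above the filter. The lists of other kinetochore and of other spindle and cytokinesis genes had 18 of 29 (62.1%) and 13 of 23 (56.5%) lower at that size on day 14 against day 10, with medians of −0.44 and −0.40. Ska3, of a complex that tracks microtubule ends at kinetochores, stood at 8.20, 7.48 and 7.23 and was 1.96-fold lower. Cenpn and Zwint, also kinetochore proteins, differed by −0.69 and −0.68. Stil, needed for centriole duplication, Depdc1a and Hmmr, a spindle and hyaluronan-binding protein, differed by −0.81, −0.80 and −0.77. In the list of other cell cycle kinases, phosphatases and ubiquitin ligases, 8 of 25 (32.0%) were lower at that size, with a median of −0.27, among them Cks1b, a Cdk-binding subunit, with −0.88, Bora, a Polo-like kinase activator, with −0.86 and the ubiquitin-conjugating Ube2c with −0.54. Of 17 genes for cohesin, condensin and separase, 5 (29.4%) were, but the median was −0.07, with 11 genes lower by any amount, 3 equal and 3 higher. The condensin subunits Ncapg, Ncaph and Ncapg2 differed by −0.57, −0.53 and −0.48, and the cohesin release factor Wapl, named after its value was seen as the highest of the list, by 0.27.

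Of 20 further genes of origin licensing and firing, 4 (20%) stood 20% or more below day 10 on day 14, near the 16.1% of genes above the filter, and the median was −0.15. Tipin, a protein of the fork protection complex, the origin protein Orc2 and the GINS subunit Gins4 differed by −0.52, −0.39 and −0.38. Of 29 genes for polymerases, the clamp loader and fork enzymes, 11 (37.9%) were lower at that size, with a median of −0.21, a share above those of the cohesin and kinase lists, though the difference between lists was not tested. Among them, the polymerase subunits Pole3 and Pold4 and the clamp loader subunit Rfc4 differed by −0.59, −0.54 and −0.52. Of 18 genes for recombination repair and the replication checkpoint, 3 (16.7%) were, again near the share above the filter, namely Chek2, Chek1 and Rad51ap1, with differences of −0.77, −0.55 and −0.43. Of 6 other E2f family genes, E2f6 and E2f7 differed by −0.60 and −0.40, and E2f3 differed by −0.22.

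Genes that act in G1 and genes that hold cells out of the cycle had median differences of −0.10 and 0.00 between day 14 and day 10. None of 8 genes for G1 cyclins, their kinases and Myc was 20% lower or 25% higher on day 14 than on day 10. Ccnd2 and Ccnd3, which encode cyclins D2 and D3, differed by −0.319 and −0.286, so Ccnd2 just missed the size counted. The kinase gene Cdk6 differed by 0.26, and on day 12 it was 1.32-fold higher than on day 10. Of 19 genes for Cdk inhibitors, pocket proteins and quiescence, 3 (15.8%) were lower at that size, near the 16.1% of genes above the filter, and the median was 0.00. Another 2 were 25% or more higher, beside 1334 of the 19938 named genes and 982 of the 9969 above the filter. Cdkn1c, the gene of the Cdk inhibitor p57, stood at 10.98, 9.93 and 9.79 and was 2.29-fold lower on day 14 than on day 10. Btg2, an antiproliferative gene that is also induced by stress, stood at 10.28, 10.78 and 10.84, and E2f5 differed by −0.62. The p21 gene Cdkn1a shared its probe set with another symbol and was not analysed here.

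Markers of cell types moved over the same days. Basal keratinocyte and fibroblast markers were present as the tissue label says, with Krt5 at 13.23, 13.24 and 13.28 and Col1a1 at 13.48, 13.48 and 13.49, all above the upper quartile of named genes on day 10, 9.83. Of all named genes 35.6%, and of those above the filter 53.8%, were lower on day 14 than on day 10 by any amount. Another 5882 of the 19938 and 1655 of the 9969 were equal on these days. The myofibroblast and smooth muscle list was lower on day 14 than on day 10 for 8 of 10 genes, with a median of −0.96, and the mean level of the list was 10.51, 9.81 and 9.52. Acta2 and Tagln in it differed by −0.87 and −1.14. The endothelial list was lower for 9 of 10 genes, with a median of −0.56 and mean levels of 10.75, 10.31 and 10.21, and Pecam1 and Cdh5 differed by −0.26 and −0.29. The neutrophil list was lower for 9 of 9 genes, with a median of −0.16 and mean levels of 9.16, 9.25 and 8.59. The part of these cell types in the lower mitotic transcripts was not tested.

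Other lists were near 0 or higher on day 14. Basal keratinocyte genes had a median difference between day 14 and day 10 of 0.05, with single genes from −0.47 to 1.94, and fibroblast genes had a median of −0.04. Differentiated keratinocyte genes were higher for 7 of 7, with a median of 0.53 and mean levels of 12.35, 12.80 and 12.92, and dendritic and Langerhans cell genes were higher for 8 of 8, with a median of 0.70. Beside these counts, 6954 of the 19938 named genes and 2953 of the 9969 above the filter were higher by any amount. Mast cell and Schwann cell lists had medians of 0.75 and 0.42, T cells and adipocytes of 0.12 and 0.09, and macrophages and skeletal muscle of 0.00 and 0.00. The skeletal muscle gene Ckm stood at 7.64, 7.64 and 7.67. Among 18 housekeeping genes none was 20% lower or 25% higher in any comparison, and their median was 0.00.

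**Figure D5:**
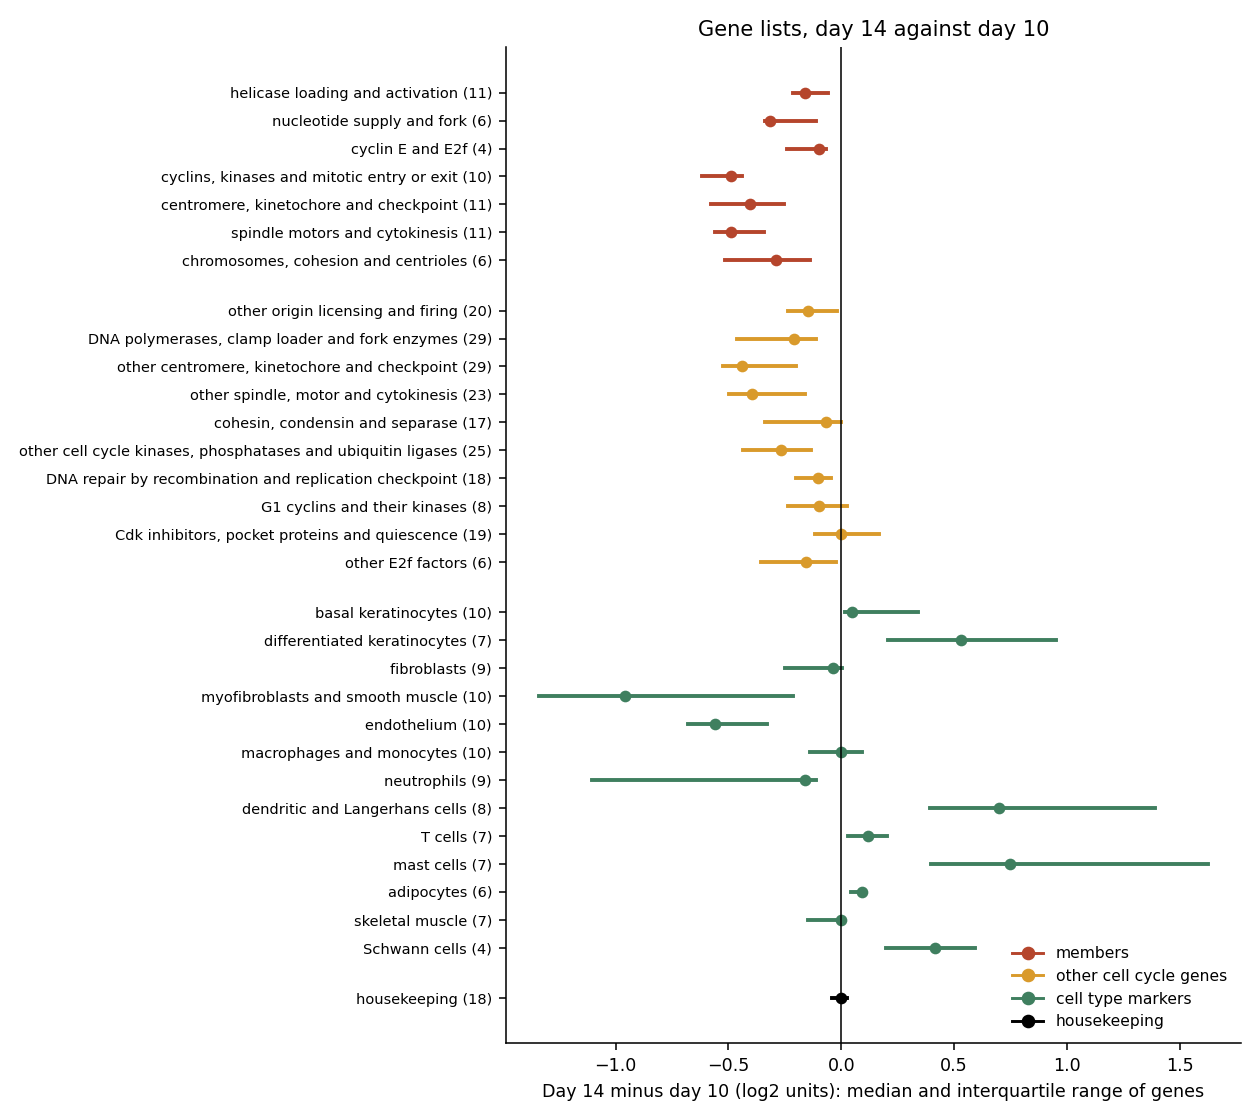
Median (point) and interquartile range (bar) of the log2 difference of day 14 against day 10 over the genes of each list, with the number of measured genes in brackets; colours mark the members' role groups, other cell cycle lists, cell type markers and housekeeping genes. The mitotic role groups lie between −0.49 and −0.29. Of the replication genes, the helicase group lies at −0.16 and the nucleotide and fork group at −0.316, within the mitotic range. The myofibroblast and endothelial markers lie at −0.96 and −0.56.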

How the data were processed

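Each of 3 single-channel arrays carried labelled material from the pooled wounds of 3 mice, 1 array for each day, with the groups taken from the time in the labels. The deposited table by the authors gives 1 log2 value per probe set and array, and that the scale is log2 was read from its range of 4.37 to 14.1. Per the submitters' processing notes, RMA and Partek 6.6 were used, with no role stated. The genome build of the array's processing is not given in the sources used here.

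Probe sets with 1 gene symbol in the platform annotation (21789 of 35556) were averaged per symbol, giving 19938 genes. Another 1621 had several symbols and 12146 were not listed. All 59 measured members kept their symbol when matched to RefSeq by gene identifier. Differences between days were taken on the log2 scale, and medians and counts were made with Python 3.11.15, numpy 2.4.6 and pandas 2.3.3 in code tested on simulated data. Cyclic loess was run with limma 3.58.1 in R 4.3.3. The number of arrays limits the precision. Promoter windows are those of RefSeq, build GRCm38.p6.

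The members and the gene lists were chosen with earlier results of these data known. All members could be named, with the 3 genes of largest absolute difference between day 14 and day 10 in each other cell cycle list and the first 2 measured genes of each marker list. The printed promoters were chosen after the values were seen. Alternatives were the scaling between arrays, the brightest probe set, other folds, leaving out equal values, the level filter and the grouping of replication genes.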

Additional observations from a re-analysis of the deposited data

How the results depend on the processing

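Medians of all members, of mitotic and of replication genes moved by less than the robust SD between probe sets (0.084 from day 10 to 12, 0.072 from day 12 to 14 and 0.11 from day 10 to 14) under every alternative run. The replication median from day 12 to 14 lay between −0.06 and 0.01, so its sign is not settled. From day 12 to 14 the median of all members lay between −0.10 and −0.04 and that of mitotic genes between −0.11 and −0.05. Counts moved mostly with the fold that counts as lower. At 1.5-fold, all members gave 4 and mitotic genes 4 from day 10 to 12, and 12 and 11 from day 10 to 14, with 0 replication genes in both. At 1.1-fold, all members gave 40 from day 10 to 12 and 12 from day 12 to 14, mitotic genes 33 and 10, and replication genes 6 and 2, and 10 from day 10 to 14. The share of all named genes at 1.1-fold was not counted, so these counts only show how far the threshold moves them. The 3 replication genes from day 10 to 14 became 1 under quantile normalization and 1 under cyclic loess. The 2 from day 10 to 12 became 1 with the brightest probe set per gene, when Tk1 differed by −0.25, and 1 with the list limited to Mcm, Gins, Cdc6, Rrm and Pcna genes. Scaling moved the median of all named genes by at most 0.02, and left 52 to 58, 40 to 45 and 55 to 57 of the 59 members lower in the 3 comparisons. No paired analysis was possible because each day has 1 array, and for the same reason no replicate could be left out.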
